A study of Homo sapiens with 6 samples.

Results

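The 5 epithelial keratins KRT5, KRT7, KRT8, KRT18 and KRT19 were followed in RNA-seq of AS-tDR-007333-overexpressed and NC cells. They were taken by gene symbol from a deposited table of 12154 protein-coding genes, which held 17 keratins in all, and all 5 were present. Levels are given as FPKM, in which the fragments of a gene are divided by its length and by the mapped fragments of its library. The table held 3 libraries of AS-tDR-007333-overexpressed cells (OE) and 3 libraries of NC cells. The labels describe A549, a lung adenocarcinoma cell line, lipofected with a plasmid for the fragment or with an empty vector, and tag the controls as untreated. The methods of the study instead describe PC9, another lung adenocarcinoma line, transfected with AS-tDR-007333 or NC, so these sources disagree on the line and on what was transfected. Each group is a culture of 1 line. Whether its 3 libraries are separate cultures is not stated, and the spread on which p-values rest may therefore be that of technical repeats.

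AS-tDR-007333 is a tRF, a fragment cut from the 5′ end of a glycine tRNA. The synthesized fragment and its control have 28 nt each and are shown 5′ to 3′ because they are the only designed difference between the groups if the study's methods apply. No position is marked by capitals.
NC: gagaauuuugauggccguucuguaugug
AS-tDR-007333: gcauuggugguucagugguagaauucuu

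Keratins are the intermediate filament proteins of epithelial cells. A filament is built from heterodimers of a type I (acidic) and a type II (basic) keratin, so each keratin needs a partner of the other type, and unpaired keratin protein is unstable. KRT8 (type II) and KRT18 (type I) form the primary pair of simple, single-layered epithelia, and KRT7 (type II) and KRT19 (type I) are added in glandular and ductal epithelia and in lung adenocarcinoma. KRT5 (type II) is the keratin of basal cells, where it pairs with KRT14, and in lung tumors it is used as a marker of squamous differentiation.

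By the deposited loci (GRCh37), the type II genes lie together on chromosome 12. KRT7 (ENSG00000135480) spans 52626304 to 52645970 on the plus strand, KRT5 (ENSG00000186081) 52908359 to 52914471 on the minus strand, and KRT8 (ENSG00000170421) 53290971 to 53343738 on the minus strand. KRT18 (ENSG00000111057), although a type I gene, lies at the edge of this cluster, at 53342655 to 53346685 on the plus strand. KRT19 (ENSG00000171345) lies in the type I cluster on chromosome 17, at 39679869 to 39684560 on the minus strand. The loci of KRT8 and KRT18 overlap by 1084 bp on opposite strands, and in GENCODE release 44 mapped to GRCh37 their exons share 525 bases. The library kit was stranded, but no source used here says whether the counting used strand. GENCODE also lists 51 KRT8, 68 KRT18 and 5 KRT19 pseudogenes, most of them processed copies elsewhere in the genome, and 0 for KRT5 and KRT7. The split of reads between KRT8, KRT18 and these copies is therefore uncertain.

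The libraries had similar totals, from 197324 to 202921 summed FPKM, and the depth behind each value is unknown because the table gives no counts. NC replicate 1 stood apart from the others on the first principal component, with a score of -18.0 against -1.53 to 9.91, so comparisons are also given without it. Markers of simple epithelium were present for 19 of the 20 genes listed for them. Among these, EPCAM, the epithelial adhesion molecule, stood at 163 to 168 FPKM in NC and 153 to 160 FPKM in OE. For 2 of the 19, EPCAM (OE lower) and OCLN (OE higher), the groups did not overlap, against 8.76% of all genes tested. The 19 are too few to set against this share. Of 14 lung lineage markers 4 were in the table, summing to 4.52 to 5.39 FPKM in NC and 4.44 to 4.56 FPKM in OE. The lineage factor NKX2-1 and the surfactant genes were not among them. Of 14 markers of fibroblasts, immune and endothelial cells, only COL1A1, a fibrillar collagen, was in the table, at 5.09 to 6.10 FPKM. The levels of the simple epithelial markers ranged widely, and several of them, such as CLDN4, a claudin, at 0.231 to 5.96 FPKM and ESRP2, a splicing factor, at 4.62 to 6.20 FPKM, were low.

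Simple epithelial keratins were among the most abundant transcripts of these cells, and KRT5 was low beside them. KRT19 stood at 665, 601 and 652 FPKM in NC replicates 1 to 3 and at 678, 645 and 650 FPKM in OE replicates 1 to 3, which placed it 19th or 20th (rank 19 to 20) of 12154 genes in every library. KRT7 stood at 352, 317 and 340 FPKM in NC and at 333, 337 and 335 FPKM in OE, at ranks 32 to 37. The 3 OE values of KRT7 lay within the range of the NC values and close to each other.
KRT18 stood at 216, 207 and 221 FPKM in NC and at 242, 232 and 224 FPKM in OE, at ranks 64 to 76. Every OE library was above every NC library for KRT18, the only one of the 5 keratins for which the groups did not overlap. The groups also did not overlap for 8.76% of all genes tested, 3.58% with OE above NC. KRT8 stood at 174, 151 and 148 FPKM in NC and at 187, 158 and 155 FPKM in OE, at ranks 92 to 132. In each group replicate 1 was the highest for KRT8 and the other libraries lay close together. KRT5 stood at 16.7, 14.8 and 14.6 FPKM in NC and at 15.5, 15.4 and 15.6 FPKM in OE, at ranks 2251 to 2618, and KRT8 exceeded it by 9.95 to 12.04 times within a library on the deposited scale. In bulk RNA, fewer cells with a keratin and less of its RNA per cell cannot be told apart.

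**Figure D1:**
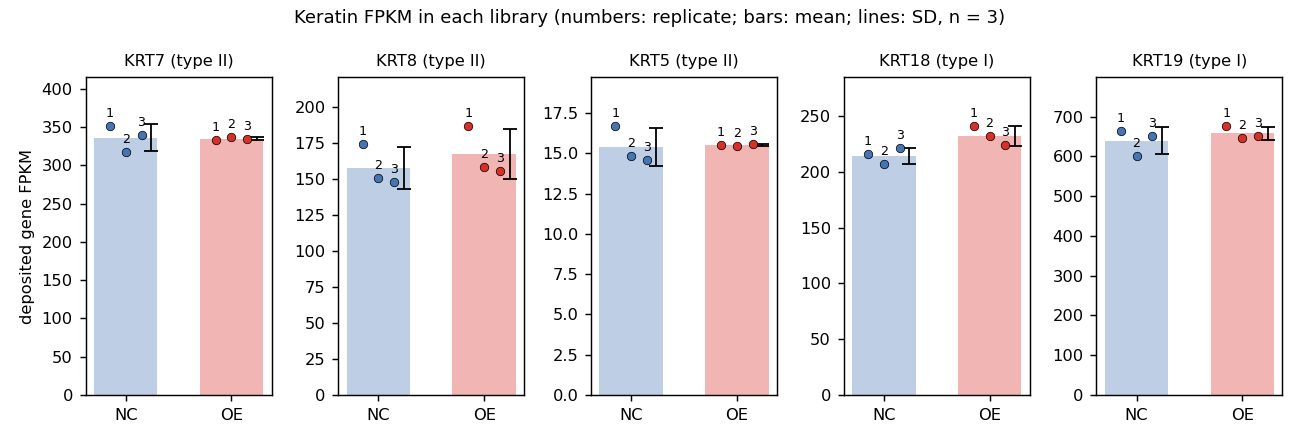
Deposited FPKM (y axis) of KRT7, KRT8, KRT5, KRT18 and KRT19 in NC (blue) and OE (red) libraries. Points are libraries numbered by replicate, bars are means and lines are the SD (n = 3), each panel with its own axis from 0. Only for KRT18 do all OE points (224 to 242 FPKM) lie above all NC points (207 to 221 FPKM), as for 3.58% of all genes tested.

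On the deposited scale the order was KRT19, KRT7, KRT18, KRT8 and KRT5, and no ranges of neighboring keratins overlapped over the 6 libraries. This order depended on the gene length in the FPKM. The deposited values of 14 of the 17 keratins turned into whole multiples of a millionth when multiplied by 1 gene length each (within 0.02), which recovers the length by which the authors' software divided. It was 6881 bases for KRT8, 4292 for KRT5, 4093 for KRT7, 3218 for KRT18 and 2336 for KRT19. For KRT8 and KRT19 these equal the joined lengths of all their exons in GENCODE release 44, whereas for KRT5, KRT7 and KRT18 those joined lengths are 4133, 3999 and 3069 bases, shorter than the recovered ones, and over the 14 keratins 3 were equal. The annotation release behind the deposited values is not known. For each of the 5 keratins the recovered length exceeded that of the canonical transcript. This transcript, the single representative mRNA chosen by the annotation, has 1784 bases for KRT8, 2238 for KRT5, 1625 for KRT7, 1413 for KRT18 and 1390 for KRT19.

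Rescaled to the canonical transcript, as if all fragments came from it, KRT8 stood at 569 to 721 FPKM and KRT18 at 471 to 550 FPKM. KRT8 was then above KRT18 in every library, the reverse of the deposited order. KRT19 stood at 1010 to 1139 FPKM, KRT7 at 800 to 887 FPKM and KRT5 at 28.0 to 32.1 FPKM on this scale, so their places did not change. The ratio of KRT8 to KRT18 was 0.726 ± 0.0553 (SD over 6 libraries) as deposited and 1.23 ± 0.0937 after rescaling. KRT8 exceeded KRT5 by 20.02 to 24.2 times within a library on the rescaled values. Levels of a keratin in OE against NC are not affected by this choice, since the length of a gene is the same in every library.

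**Figure D2:**
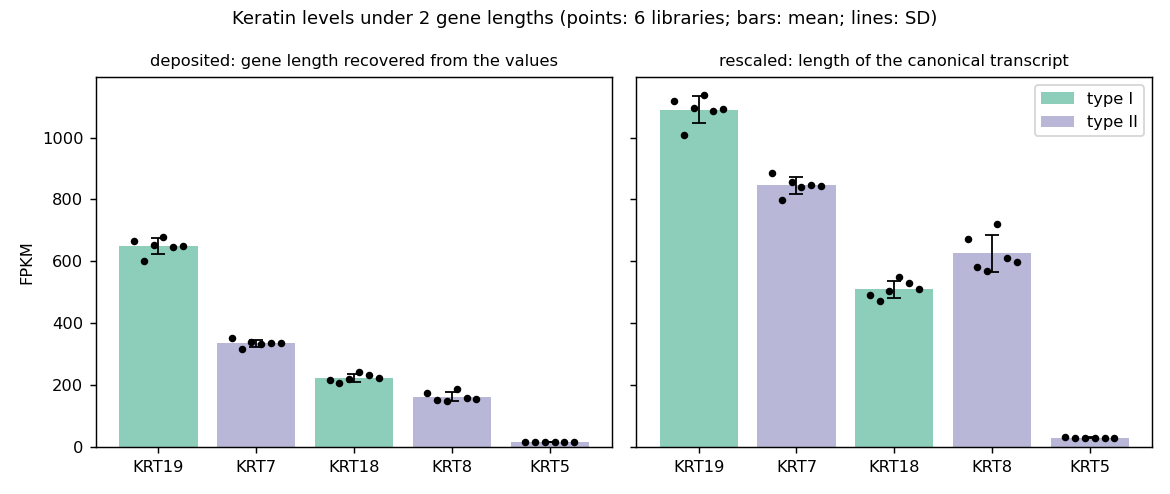
FPKM (y axis, same scale in both panels) of the 5 keratins as deposited, with the gene length recovered from the values (left), and rescaled to the canonical transcript of GENCODE release 44 (right). Points are the 6 libraries, bars are means and lines are the SD, colored by keratin type. KRT8 lies below KRT18 on the left (148 to 187 against 207 to 242 FPKM) and above it on the right (569 to 721 against 471 to 550 FPKM).

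The balance of the keratin types was read from the same values. As deposited, the type II keratins KRT5, KRT7 and KRT8 summed to 0.597 ± 0.0209 of the type I keratins KRT18 and KRT19 in NC cells and to 0.581 ± 0.00243 in OE cells (SD, n = 3 each), with overlapping groups. Rescaled to the canonical transcripts, the ratio was 0.950 ± 0.0403 in NC and 0.928 ± 0.0125 in OE. Type I and type II mRNA were thus close to equal on the rescaled scale and unequal on the deposited scale.

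The 5 keratins together held 0.684 ± 0.0309% of the listed FPKM in NC cells and 0.701 ± 0.0135% in OE cells (SD, n = 3 each). Of their sum, KRT19 took 46.9 ± 0.464% in NC and 46.7 ± 0.352% in OE, and KRT8 took 11.6 ± 0.767% and 11.8 ± 0.875%. KRT5 took 1.13 ± 0.0580% and 1.10 ± 0.0332%. The share of KRT18 was 15.2, 16.02 and 16.1% in NC and 16.6, 16.7 and 16.2% in OE, each OE value above each NC value. The share of KRT7 was 24.7, 24.6 and 24.7% in NC and 22.9, 24.3 and 24.2% in OE, each OE value below each NC value. These shares sum to a fixed total, so a higher share of a keratin lowers the others, and no test was made on them. With all 17 keratins as the denominator, the groups overlapped for both KRT18 and KRT7.
Within a library, KRT19 exceeded KRT18 by 2.98 ± 0.0900 times in NC and 2.83 ± 0.0669 times in OE, and KRT7 stood at 0.526 ± 0.00452 of KRT19 in NC and 0.509 ± 0.0154 in OE (SD, n = 3 each). Both ratios moved by a few percent between groups, and for both the groups overlapped.

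**Figure D3:**
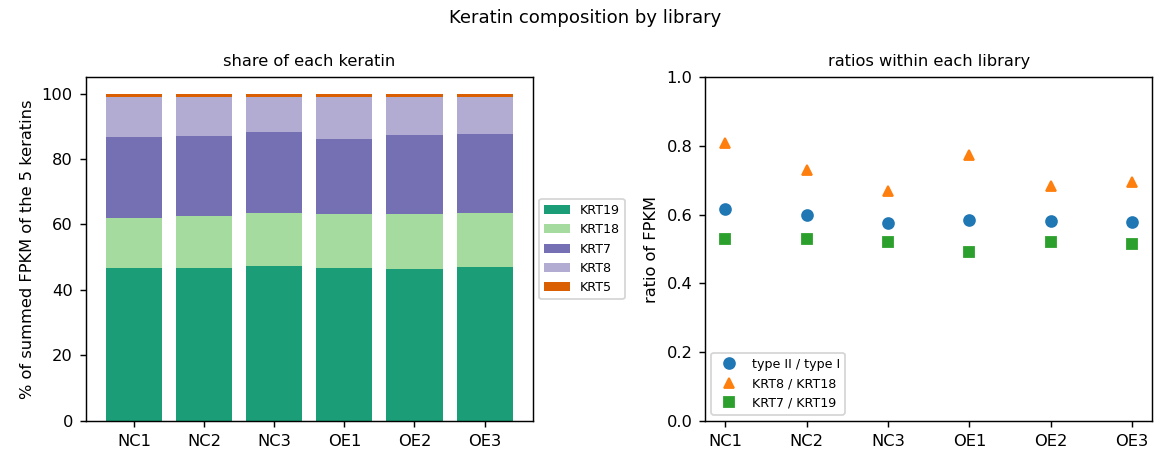
Share of each keratin in the summed FPKM of the 5 keratins (left, percent) and ratios of FPKM within each library (right), for NC and OE libraries by replicate number. The share of KRT19 stays between 46.5 and 47.4%, and the ratio of KRT8 to KRT18 is highest in replicate 1 of each group (0.808 in NC and 0.774 in OE).

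The comparison of OE with NC asks whether the fragment changed the keratin mRNAs. None of the 5 keratins was called by limma on log2(FPKM + 1) at a Benjamini-Hochberg adjusted p under 0.05 over 11042 genes, against 0.0634% of all genes tested (7 genes), and none reached a fold of 1.5 with an unadjusted p under 0.05, against 0.516%. KRT18 alone had an unadjusted p under 0.05, as did 3.61% of the genes tested (1.63% with OE higher). Its mean was 215 ± 7.20 FPKM in NC and 233 ± 8.87 FPKM in OE (SD, n = 3 each). The log2 fold change was 0.11 with a standard error of 0.05, and its 95% interval of 0.0045 to 0.23 came close to 0. Its unadjusted limma p was 0.0436, its adjusted p was 0.9996, and an exact two-sided permutation test over the 6 libraries gave p = 0.1, the smallest that 3 libraries against 3 allow. The groups did not overlap for 8.76% of the genes tested (3.58% with OE above NC), and a single one of 5 keratins is too few to set against these shares. The limma adjusted p was 0.9996 for each keratin and for every other gene named here with a fold change.
KRT8, its filament partner, had a log2 fold change of 0.08 with a wider interval, -0.15 to 0.31 (exact permutation p = 0.5). KRT19 had 0.04, with an interval of -0.07 to 0.16 (exact permutation p = 0.6). KRT7 had -0.0052, with an interval of -0.12 to 0.10 (exact permutation p = 0.9). KRT5 had 0.015, with an interval of -0.14 to 0.17 (exact permutation p = 1). The intervals leave room for folds between 0.903 and 1.24 for KRT8 and between 0.923 and 1.08 for KRT7, so a 1.5-fold change lay outside the interval for each of the 5 keratins. The signs of these small differences depended on single libraries for 4 of the keratins. Only the difference of KRT18 was positive in all 12 alternatives (log2 fold change 0.09 to 0.14). Its unadjusted limma p-values in them ran from 0.0337 (without OE replicate 3) to 0.144 (without OE replicate 1). The Ballgown-style model, which has no moderated variances, gave KRT18 an unadjusted p of 0.19.

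**Figure D4:**
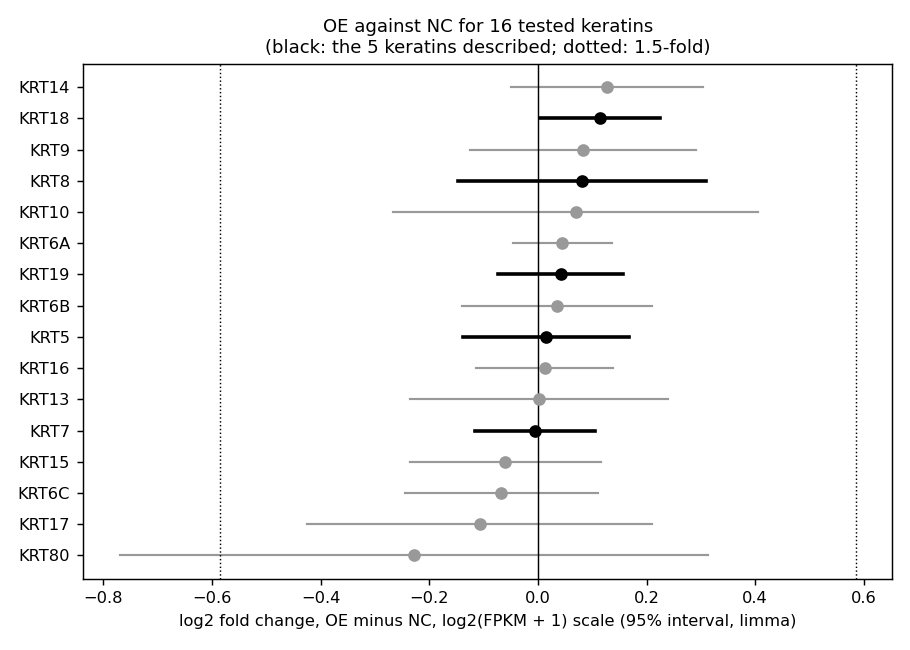
Log2 fold change of OE against NC on the log2(FPKM + 1) scale (x axis) for the 16 keratins tested, with 95% intervals from limma. Black marks the 5 epithelial keratins and dotted lines a fold of 1.5. The 5 black intervals lie within -0.15 and 0.31, and KRT80 has the widest interval of all, from -0.77 to 0.31.

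Without NC replicate 1 the 5 log2 fold changes were all positive, at 0.07 for KRT5, 0.03 for KRT7, 0.16 for KRT8, 0.12 for KRT18 and 0.07 for KRT19, and none was called (lowest limma adjusted p = 0.728). The spread within groups differed among the keratins. The coefficient of variation of KRT5 was 7.56% in NC and 0.519% in OE, and that of KRT7 was 5.21% and 0.497%, while KRT8 had 9.31% and 10.4%. NC replicate 1 was the highest NC library for KRT5, KRT7, KRT8 and KRT19, but not for KRT18.

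Of the other 12 listed keratins, KRT6A, KRT17, KRT80, KRT16 and KRT6B stood above KRT5 in every library on the deposited scale. KRT6A, a type II keratin of wounded and hyperproliferative epithelium, stood at 172 to 183 FPKM, and its paralogs KRT6B and KRT6C at 27.1 to 32.2 and 5.20 to 6.40 FPKM. KRT6A thus exceeded KRT5 by 10.7 to 11.8 times in each library on this scale. Its type I partners KRT17 and KRT16 stood at 105 to 148 and 38.6 to 42.4 FPKM. The KRT6 genes are near-identical copies, so reads may be split between them in ways that the table does not show. KRT14, KRT16 and KRT17 are related but distinct genes, and whether reads were split among them was not tested.
KRT14, the usual partner of KRT5, stood at 1.19 to 1.66 FPKM, and KRT15, another basal keratin, at 2.29 to 2.82 FPKM. KRT5 was therefore present with little of its own partner, while 2 other listed type I keratins of stratified epithelium, KRT13 (13.9 to 17.4 FPKM) and KRT10 (6.56 to 9.58 FPKM), stood nearer to its level. On the canonical transcript scale KRT6A stood at 218 to 233 FPKM and KRT17 at 175 to 248 FPKM, below KRT8 and KRT18 in every library. KRT9 and KRT34, keratins of palm and sole skin and of hair, stood at 0.942 to 1.36 and 0.344 to 0.862 FPKM, and KRT34 lay below the filter of a mean of 1 FPKM.

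Of these other keratins, 11 were tested. None was called by limma and none had an unadjusted p under 0.05, against 0.0634% and 3.61% of all genes tested. These 11 keratins are too few to set against those shares. Their median log2 fold change was 0.01, that of the 5 epithelial keratins 0.04 and that of all genes tested -0.01. KRT14 had the largest positive value among the 16 keratins tested, 0.13, from 1.36 ± 0.157 to 1.57 ± 0.0826 FPKM (SD, n = 3 each). KRT6A had 0.05 with an interval of -0.05 to 0.14. KRT80, a type II keratin of wide epithelial distribution and the nearest listed gene before KRT7, had -0.23, from values of 34.0, 49.4 and 45.9 FPKM in NC and 30.9, 30.6 and 50.1 FPKM in OE. Its libraries fell on a lower and a higher level in each group. KRT17 had -0.11, with NC replicate 1 at 148 FPKM against 105 to 117 FPKM in the other libraries.

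**Figure D5:**
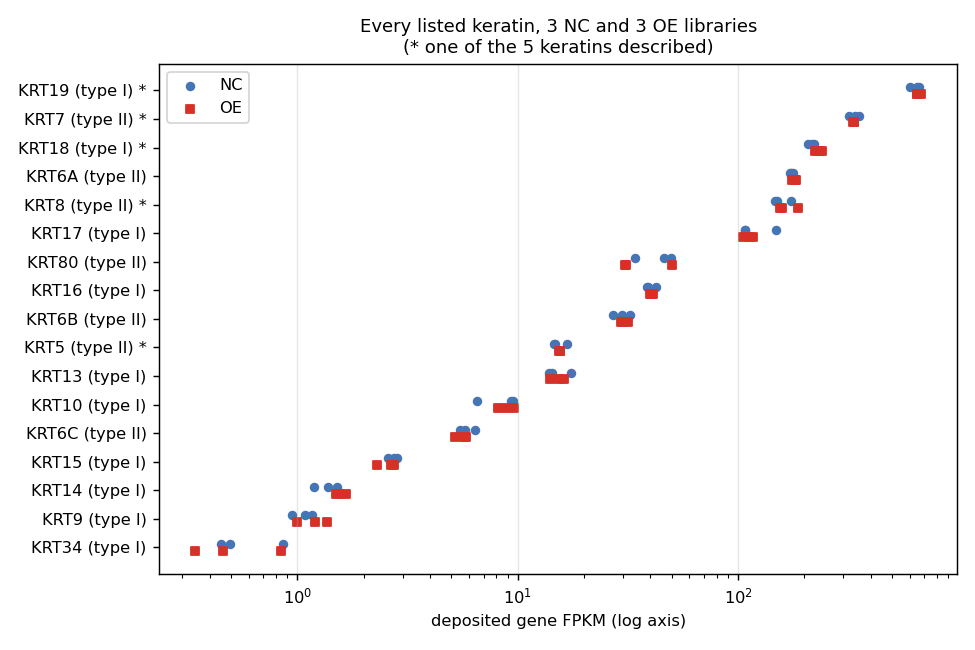
Deposited FPKM (log x axis) of all 17 listed keratins in NC (blue circles) and OE (red squares) libraries, ordered by mean. KRT19 leads at 601 to 678 FPKM, KRT6A and KRT17 lie near KRT8, and KRT5 (14.6 to 16.7 FPKM) lies above its partner KRT14 (1.19 to 1.66 FPKM).

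The basal and squamous markers went with a mixed pattern. Of 19 listed for them, 11 were in the table, summing to 480 to 519 FPKM in NC and 493 to 519 FPKM in OE. These sums include KRT6A (172 to 183 FPKM) and KRT17 (105 to 148 FPKM), described above. TP63, the master factor of basal cells, stood at 2.59, 1.94 and 7.97 FPKM in NC and at 2.30, 2.30 and 2.22 FPKM in OE, with NC replicate 3 apart from the rest. TRIM29 (34.96 to 38.6 FPKM) and SERPINB5 (36.9 to 42.1 FPKM), both used as squamous markers, were present, as was S100A2 (64.2 to 93.0 FPKM). S100A2 had the smallest p of the list and a log2 fold change of 0.22, with an interval of -0.07 to 0.51. SOX2, NGFR and the desmosomal cadherins DSG3 and DSC3 were looked for and were not in the table. None of the 11 was called by limma and none had an unadjusted p under 0.05, against 0.0634% and 3.61% of all genes tested. The 11 are too few to set against these shares.

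Keratin filaments are anchored at desmosomes by plakins. All 16 listed genes of desmosomes and plakins were tested, with a median log2 fold change of -0.0064. By limma 0 were called and 0 had an unadjusted p under 0.05, against 0.0634% and 3.61% of all genes tested. This list and those that follow are too short to set against these shares. EVPL, envoplakin, had the smallest p of the list and a log2 fold change of 0.29, from 16.9 ± 4.12 to 20.4 ± 1.04 FPKM (SD, n = 3 each), and JUP, plakoglobin, had 0.06, with an interval of -0.07 to 0.19. Among 10 other intermediate filament genes 0 were called and 0 had an unadjusted p under 0.05, with a median of -0.06. VIM, vimentin of mesenchymal cells, stood at 11.5, 9.24 and 9.97 FPKM in NC and at 9.01, 9.61 and 8.70 FPKM in OE (log2 fold change -0.15), far below every simple epithelial keratin. LMNA, the nuclear lamin A/C, had -0.19, with an interval of -0.52 to 0.13.
Of 21 genes for proteins that bind, modify or cleave keratins, 0 were called and 0 had an unadjusted p under 0.05, with a median of -0.02. HSPB1, a small heat shock protein that associates with intermediate filaments, had 0.09, from 213 ± 6.08 to 227 ± 8.17 FPKM (SD, n = 3 each). PNN, pinin, a nuclear and desmosome-associated protein, had -0.09. Of 28 transcription factors known at keratin promoters, 0 were called and 0 had an unadjusted p under 0.05, with a median of -0.0090. JUND, an AP-1 subunit, had -0.17, and KLF4, a zinc finger factor of epithelial differentiation, had 0.07. The count of called genes was 0 for each of these lists in all 12 alternatives. Over all genes tested, limma called 7 (0.0634%), the Ballgown-style model 0, and no alternative more than 18. Counts of 0 in lists this short therefore say little.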

How the data were processed

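The deposited table, made by the authors, gives FPKM of 12154 protein-coding genes in 6 libraries. The study's methods name HISAT2 for mapping to GRCh37 and Ballgown for FPKM, whereas HISAT2 2.0.5 and featureCounts 1.5.0-p3 stand in the submitters' processing notes, with no annotation release. Each listed gene reached a mean of 0.5 FPKM in NC or OE. Depth is unknown, because low values showed no whole-read steps. Groups were taken from sample titles.

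OE and NC were compared on log2(FPKM + 1) with limma 3.58.1 in R 4.3.3 (moderated variances with a trend), for the 11042 genes averaging at least 1 FPKM, adjusting by Benjamini-Hochberg over all of them. This scale understates changes of low genes. Shares and ratios were computed per library in Python 3.11.15 and drawn with matplotlib 3.10.9. Gene lengths were recovered from the decimals of the deposited values. Scripts were tested on simulated data. Alternatives were a pseudocount of 0.1, no filter or one at 5 FPKM, median-of-ratios rescaling, a Ballgown-style model, a replicate block, each library left out, and other denominators. The canonical transcript length was added after the data were seen.

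The keratins, lists and tests were chosen with earlier results of these data known. Named were all listed keratins, genes among the 4 with the smallest p of each list, neighbors of the keratins and the 2 genes most alike to each. CLDN4, CLDN7, ESRP2, TRIM29 and SERPINB5, from the marker lists, were named after their values were seen.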

Additional observations from a re-analysis of the deposited data

How the results depend on the processing

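No keratin was called in any alternative, and limma gave 7 called genes in all. The Ballgown-style model called 0 genes (546 at an unadjusted p under 0.05), the replicate block called 1, and leaving out a library gave 1 (without NC replicate 3) to 18 (without NC replicate 1), with 14 without NC replicate 2 and 11 without OE replicate 2. Genes at an unadjusted p under 0.05 numbered 399, and 354 (without OE replicate 3) to 749 (without NC replicate 1) when a library was left out. With a stricter filter of 5 FPKM they numbered 222, of which 29 reached a fold of 1.5, in place of 57. That filter leaves fewer genes and removes the low ones, and the cause of the lower counts was not tested. KRT7 turned positive with rescaling (log2 fold change 0.0070), in the Ballgown-style model (0.014) and without NC replicate 1 or 3, and over the 6 fits without a library it ranged from -0.046 to 0.028. These fits gave -0.019 to 0.072 for KRT5, -0.0025 to 0.16 for KRT8 and -0.0017 to 0.071 for KRT19, with negative values for KRT5 without NC replicate 2 or 3, for KRT8 without OE replicate 1 and for KRT19 without NC replicate 2. The cause of these sign changes was not tested. The Ballgown-style model gave larger values for KRT8 (0.25) and KRT5 (0.10), and neither was called.

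Over all genes, the deviations of libraries with the same replicate number had correlations of -0.0134, 0.0106 and -0.0054. Such values show no gene-by-gene pattern shared by libraries of the same number. A shift common to all genes would not appear in them, and they cannot tell whether the libraries were prepared in pairs. The replicate block cannot move the log2 fold changes of this balanced design (0.11 for KRT18). The block moved the unadjusted limma p of KRT18 from 0.0436 to 0.0929. For KRT8, highest in replicate 1 of each group, it moved the standard error from 0.095 to 0.046 and the unadjusted limma p from 0.423 to 0.142. No keratin gained or lost a call. Without mitochondrial genes in the denominator, the keratins held 0.82% of the listed FPKM in place of 0.693%. With all listed keratins as the denominator, the mean share was 0.847% in place of 1.12% for KRT5, 18.4% in place of 24.2% for KRT7, 8.88% in place of 11.7% for KRT8, 12.3% in place of 16.1% for KRT18 and 35.5% in place of 46.8% for KRT19, and the type II to type I ratio was 0.725 in place of 0.589. With the canonical transcript length, chosen after seeing the data, the shares of KRT5, KRT7, KRT8 and KRT19 were 0.957, 27.3, 20.2 and 35.2%, the type II to type I ratio was 0.939, and the ratio of KRT8 to KRT18 was 1.23 in place of 0.726. The counting error of each value cannot be given, since the depth is unknown.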

Other observations

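The keratins were also compared by their pattern across the 6 libraries, which share a cell line and the split into groups, so that Pearson's r of log2(FPKM + 1) is a description. Partners in the filament were not the genes most alike to each other. KRT8 and KRT18 had an r of 0.571, which placed KRT18 at rank 1278 of the 11041 other genes by likeness to KRT8, and KRT7 and KRT19 had an r of 0.756, which placed KRT19 at rank 735 by likeness to KRT7. KRT18 and KRT5 had the lowest r of any pair, 0.117. The 2 genes most alike to KRT8 were CLASRP (r = 0.977) and SHISA4 (0.975), and those most alike to KRT18 were PHC2 (0.981) and DNAJC24 (0.975). For KRT19 they were BMF (0.988) and GSTP1 (0.979), for KRT7 RNF31 (0.998) and SELENOO (0.992), and for KRT5 HMGA1 (0.991) and FGFR3 (0.991). With 6 libraries and so many genes, some genes reach a value near 1 with any pattern.

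KRT15 and EIF4B, listed neighbors of keratin genes, stood at other levels than the keratins beside them on the deposited scale. KRT15, which ends 1088 bp from KRT19, had a mean of 2.71 FPKM in NC and 2.56 FPKM in OE, against 639 and 658 FPKM for KRT19. EIF4B, a translation initiation factor 53381 bp beyond KRT18, had 90.2 and 94.2 FPKM (log2 fold change 0.07).

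CDH1, the epithelial cadherin, stood at 66.7, 35.3 and 34.6 FPKM in NC and at 53.1, 69.2 and 69.7 FPKM in OE, with an SD of 18.3 FPKM in NC and 9.48 FPKM in OE, and was not called by limma (log2 fold change 0.54). CLDN7, a claudin, stood at 115 FPKM in OE replicate 1 against 67.3 to 77.9 FPKM in the other libraries.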
